A study of Mus musculus with 6 samples.

Results

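Thermogenic and beige fat markers are the genes by which a fat depot with heat-producing adipocytes is recognised. A list of 10 such genes was followed in epididymal white adipose tissue (eWAT, the visceral pad beside the epididymis): Ucp1, Dio2, Cidea, Elovl3, Cox7a1, Cox8b, Kcnk3, Ppargc1a, Prdm16 and Tmem26. A gene was read from array rows that the platform annotation assigns to that gene alone, and, where it had several such rows, from the row with the highest mean over all arrays. By this rule 9 of the 10 genes had a value, out of 22180 named genes on the array. Kcnk3, a potassium channel gene, was named only in 2 rows that carry a second gene and has no value here.

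The arrays compared 3 wild-type mice (WT 1 to WT 3) with 3 mice carrying Blnc1, a noncoding RNA of brown adipocytes, as an adipose-specific transgene (Tg 1 to Tg 3). All 6 were C57BL/6 males aged 8 months and had received a high-fat diet for 21 weeks, so no animal on a standard diet stands beside them. The promoter behind the transgene and the number of founder lines are not given in the sources used here. No row of the array carried the name Blnc1, so the genotype was not checked on the arrays. The replicates are labelled biological, and each array was taken as 1 mouse.

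Brown and beige adipocytes burn fuel to make heat. Noradrenaline from sympathetic nerves acts through beta-adrenergic receptors and cyclic AMP, protein kinase A and the factor CREB, and this raises transcription of Ppargc1a, Dio2 and Ucp1, while PRDM16 and EBF2 set the identity of the cells. UCP1 then lets protons flow back into the mitochondrial matrix without making ATP. Epididymal fat is a white depot in which such cells are rare, and whole tissue RNA cannot tell fewer cells of a type from less RNA per cell.

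The tissue label was met by the white adipocyte markers, whose array means over 18 genes lay between 9.29 and 9.62 in WT and between 9.64 and 10.04 in Tg on the log2 scale of the deposited values. Some arrays also carried transcripts of neighbouring tissue. Gpx5, an epididymal peroxidase gene, read 10.77 on Tg 2, 3.22 on Tg 1 and at most 1.20 on the other 4 arrays. Defb42, of the same marker list, read 4.37 on WT 2, 5.67 on WT 3, 5.64 on Tg 2 and at most 1.20 elsewhere. The mean of the 25 measured genes of that list was 5.01 on Tg 2 and 1.63 to 1.96 on the other arrays. By this mean WT 2 (1.95) and WT 3 (1.96) did not stand out from Tg 1 (1.95). Cnn1, a smooth muscle gene, read 7.09 on WT 2 and 8.46 on WT 3 against 4.07 to 4.77 elsewhere. Myh11, of the same list, read 8.39 on WT 2 and 9.52 on WT 3 against 7.09 to 7.61 elsewhere. Other genes of the list differed from Cnn1, with Actg2 highest on Tg 2 (7.62) and Acta2 at 10.46 to 10.81 on all arrays. The mean of the 14 genes was 7.15 on WT 2, 7.41 on WT 3 and 6.58 to 6.93 elsewhere. Results are therefore also given for WT 1, Tg 1 and Tg 3 alone, the arrays without the highest values of Gpx5, Defb42 and Cnn1. Tg 1 still held some Gpx5 signal, and this comparison rests on a single WT mouse. That mouse, WT 1, was the highest WT array for 8 of the 9 measured genes, which raises their WT level in this comparison. Medians of the arrays were 2.64 to 2.75, and the precision is limited by the 3 arrays per group.

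Promoter sequences from RefSeq (GRCm38.p6; 250 bases before to 50 after the start of the gene) matched 7 of the 10 genes, all but Cidea, Elovl3 and Kcnk3. The windows of Ucp1 and Tmem26 are shown because these were the genes whose groups stood apart, and parts of those of Dio2 and Ppargc1a because both hold letters of a cyclic AMP response element, the site that CREB is known to bind. Capitals mark TGACG, the core of that element, and AGGTCA, the hexamer that nuclear receptors are known to bind, on either strand; in Dio2 they mark the full element TGACGTCA, which contains TGACG on both strands.
Ucp1, chr8:83290098-83290397, plus strand: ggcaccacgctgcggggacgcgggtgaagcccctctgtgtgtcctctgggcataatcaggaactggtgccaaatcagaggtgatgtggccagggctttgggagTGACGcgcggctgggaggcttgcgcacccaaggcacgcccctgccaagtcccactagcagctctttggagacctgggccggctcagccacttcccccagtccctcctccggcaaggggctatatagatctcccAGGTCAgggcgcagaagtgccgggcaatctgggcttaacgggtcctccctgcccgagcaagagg
Tmem26, chr10:68723496-68723795, plus strand: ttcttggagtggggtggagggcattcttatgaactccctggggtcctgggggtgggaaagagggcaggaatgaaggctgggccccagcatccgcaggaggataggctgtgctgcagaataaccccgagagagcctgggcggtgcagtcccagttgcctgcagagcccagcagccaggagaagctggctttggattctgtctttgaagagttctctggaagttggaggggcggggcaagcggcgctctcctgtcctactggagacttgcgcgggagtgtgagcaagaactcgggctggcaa
Dio2, chr12:90739100-90739159, minus strand: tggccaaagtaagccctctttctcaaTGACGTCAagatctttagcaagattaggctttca
Ppargc1a, chr5:51567741-51567800, minus strand: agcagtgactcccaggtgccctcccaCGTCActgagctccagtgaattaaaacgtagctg

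TGACG was found in 3 of the 7 windows (Ucp1, Dio2 and Ppargc1a), where 20.9% of all 32544 distinct mouse promoter windows of 300 bases hold it. The full element TGACGTCA was found in Dio2, starting 95 bases before the gene, and is held by 1.80% of all windows. AGGTCA was found in Ucp1, starting 14 bases before the gene, and is held by 16.2% of windows. The palindromic EBF motif was matched in 0 of the 7 windows and in 0.913% of all. Tmem26 held none of the 4 motifs in this window. These matches describe letters in a short window and were not linked to the expression values below.

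Ucp1 and Tmem26 were lower in Tg than in WT on every array, while the other 7 genes overlapped between the genotypes. Among the 9 measured genes, 4 were lower and 5 higher in Tg, with a median difference of 0.07, against 52.8% of all rows lower and a median of -0.01. Limma with Benjamini-Hochberg adjustment over all 41345 rows called 0 of the 9 genes at an adjusted p of 0.05, and 0.0% of all rows (0 rows). At an unadjusted p under 0.05 there were 2 of the 9 genes, Ucp1 and Tmem26, and 10.3% of rows. The adjusted p of the other 7 genes lay between 0.53 and 0.97 in limma. Groups without overlap, lower in Tg, were found for 2 of the 9 genes and for 9.35% of all rows, and groups without overlap, higher in Tg, for 0 of the 9 genes and 7.36% of rows. The count of lower genes and the median difference depended on single arrays. Without WT 3 the count of lower genes was 7 of 9 and the median -0.16, and without WT 1 the median was 0.25. In WT 1, Tg 1 and Tg 3 alone the count was 8 of 9 and the median -0.25. Keeping only WT 1, the highest WT array for 8 of the 9 genes, lowers such differences by itself.

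**Figure D1:**
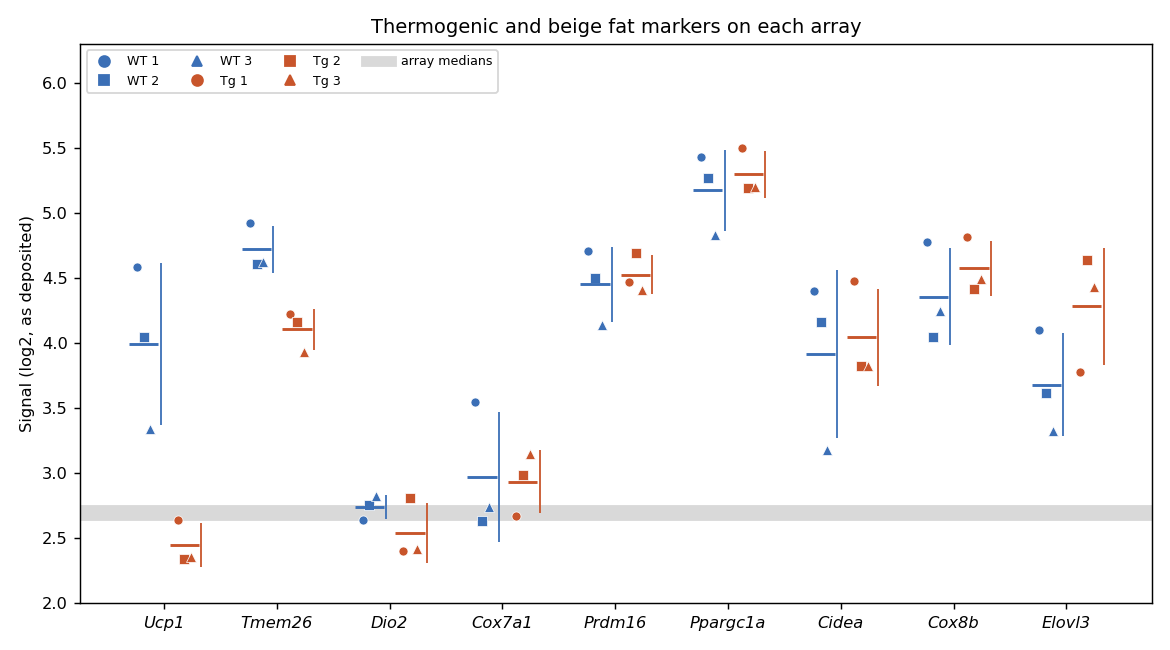
Log2 signal as deposited of the 9 measured genes on each of the 6 arrays (blue, WT; orange, Tg; circle, square and triangle, replicates 1, 2 and 3), with the group mean as a horizontal bar and its SD as a vertical line; the grey band spans the medians of the 6 arrays, 2.64 to 2.75. Only Ucp1 and Tmem26 show Tg points wholly below WT points, and Ucp1 in Tg lies at or under the grey band.

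Ucp1 encodes the mitochondrial uncoupling protein itself. It read 4.58, 4.05 and 3.34 on WT 1 to WT 3 and 2.64, 2.34 and 2.35 on Tg 1 to Tg 3. The WT mice spanned 1.24 log2 units, whereas the Tg mice lay within 0.30 of each other, and the lowest WT array was 0.70 above the highest Tg array. All 3 Tg values were below the median of their own array and all 3 WT values above it, so the Tg level is that of a dim row, where RMA compresses differences. Means were 3.99 ± 0.62 in WT and 2.44 ± 0.17 in Tg (SD, n = 3), a difference of -1.55 ± 0.30 (SE; 95% interval -2.28 to -0.82), or 2.92-fold lower. Of all 41345 rows, 78 were lower in Tg by at least this much, Ucp1 included, and Ucp1 ranked 209 by p. The adjusted p was 0.33 in limma, and with 3 mice a group the smallest two-sided p of an exact permutation test is 0.1.

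For Ucp1, WT 1 against Tg 1 and Tg 3 gave -2.09, with an adjusted p of 0.90 in a limma fit that takes the lone WT array to vary like the Tg arrays. The part of neighbouring tissue in the Ucp1 difference was not tested. White adipocyte markers were higher in Tg in 18 of 18 measured genes, by a median of 0.39, with 0 past the threshold. Groups stood apart in 11 of the 18, against 7.36% of all rows that were higher with groups apart. Endothelial markers were higher too, in 14 of 14 genes by a median of 0.34, with 0 past the threshold and groups apart in 2. Over all rows 52.8% were lower in Tg. The bearing of either list on the Ucp1 difference was not tested.

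Tmem26 encodes a membrane protein used as a surface marker of beige adipocytes. It read 4.93, 4.61 and 4.62 in WT and 4.22, 4.16 and 3.93 in Tg. The groups were separated by 0.39, more than the spread of 0.32 within WT or 0.29 within Tg. The means were 4.72 ± 0.18 and 4.10 ± 0.16 (SD, n = 3), and the difference was -0.62 ± 0.14 (SE; 95% interval -0.95 to -0.29), 1.53-fold lower in Tg, with an adjusted p of 0.33 in limma. In WT 1, Tg 1 and Tg 3 alone it was -0.85.

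Cidea, a lipid droplet protein gene and one of the most used brown fat markers, did not follow Ucp1. It read 4.40, 4.16 and 3.18 in WT and 4.48, 3.83 and 3.83 in Tg. WT 3 was the lowest array and Tg 1 the highest, and the groups overlapped over most of their range. The difference was 0.13 ± 0.35 (SE), with a 95% interval of -0.71 to 0.97. Its sign turned without WT 3 (-0.24), without Tg 1 (-0.09) and in WT 1, Tg 1 and Tg 3 alone (-0.25).

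Elovl3, a fatty acid elongase gene that is induced by cold in brown fat, was the only measured gene other than Ucp1 and Tmem26 with a difference above 0.5. It read 4.10, 3.62 and 3.32 in WT and 3.78, 4.64 and 4.43 in Tg. Tg 2 and Tg 3 lay above all WT arrays and Tg 1 lay inside the WT range. The difference was 0.60 ± 0.28 (SE; 95% interval -0.08 to 1.28) with an adjusted p of 0.53 in limma. It was 0.86 without Tg 1, 0.42 without Tg 2, 0.42 without WT 3 and 0.0033 in WT 1, Tg 1 and Tg 3 alone, where its highest Tg array and its 2 lower WT arrays are left out. Tg 2, the highest array for Elovl3, also had the highest mean of the epididymal markers (5.01 against 1.63 to 1.96 on the other arrays). The part of this signal in the Elovl3 value was not tested.

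Cox7a1 and Cox8b encode tissue-specific subunits of cytochrome c oxidase that are abundant in brown fat and in striated muscle. Cox7a1 read 3.55, 2.63 and 2.74 in WT and 2.67, 2.99 and 3.14 in Tg. WT 1 stood above the other 5 arrays, and the difference was -0.04 ± 0.27 (SE; 95% interval -0.68 to 0.60), with a sign that changed with each of the 3 other scalings of the arrays. In WT 1, Tg 1 and Tg 3 alone it was -0.64, which is the distance of WT 1 from the Tg arrays. Cox8b read 4.77, 4.05 and 4.25 in WT and 4.81, 4.41 and 4.49 in Tg. Tg 1 and WT 1 were its highest arrays and nearly level, and the difference was 0.22 ± 0.21 (SE; 95% interval -0.30 to 0.73). It was 0.06 without WT 2, 0.10 without Tg 1, 0.43 without WT 1 and -0.12 in WT 1, Tg 1 and Tg 3 alone. Skeletal muscle markers, listed because muscle shares both subunits, had array means over 16 genes of 2.60 to 2.81 in WT and 2.68 to 2.85 in Tg, and their part in these values was not tested.

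Dio2 encodes the deiodinase that turns thyroxine into active thyroid hormone inside the adipocyte. Its brighter row read 2.64, 2.75 and 2.82 in WT and 2.40, 2.81 and 2.41 in Tg, all close to the medians of the arrays. Tg 1 and Tg 3 were below WT, and Tg 2 was level with WT 3. The difference was -0.20 ± 0.14 (SE; 95% interval -0.54 to 0.14), and -0.27 ± 0.19 in its second, dimmer row.

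The regulators of the programme overlapped between the genotypes as well. Ppargc1a, the gene of the coactivator PGC-1alpha that drives mitochondrial biogenesis, read 5.43, 5.27 and 4.83 in WT and 5.50, 5.19 and 5.20 in Tg. The Tg arrays lay inside the WT range except Tg 1, which was just above it. The difference was 0.12 ± 0.18 (SE; 95% interval -0.32 to 0.56). Prdm16, the gene of the zinc finger factor that holds brown and beige identity, read 4.71, 4.50 and 4.14 in WT and 4.47, 4.69 and 4.41 in Tg. All 3 Tg arrays lay inside the WT range, and the difference was 0.07 ± 0.17 (SE; 95% interval -0.34 to 0.49), with 0.07 ± 0.17 in its dim second row as well. Both signs turned without WT 3, to -0.05 for Ppargc1a and -0.08 for Prdm16, and in WT 1, Tg 1 and Tg 3 alone, to -0.08 and -0.27.

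**Figure D2:**
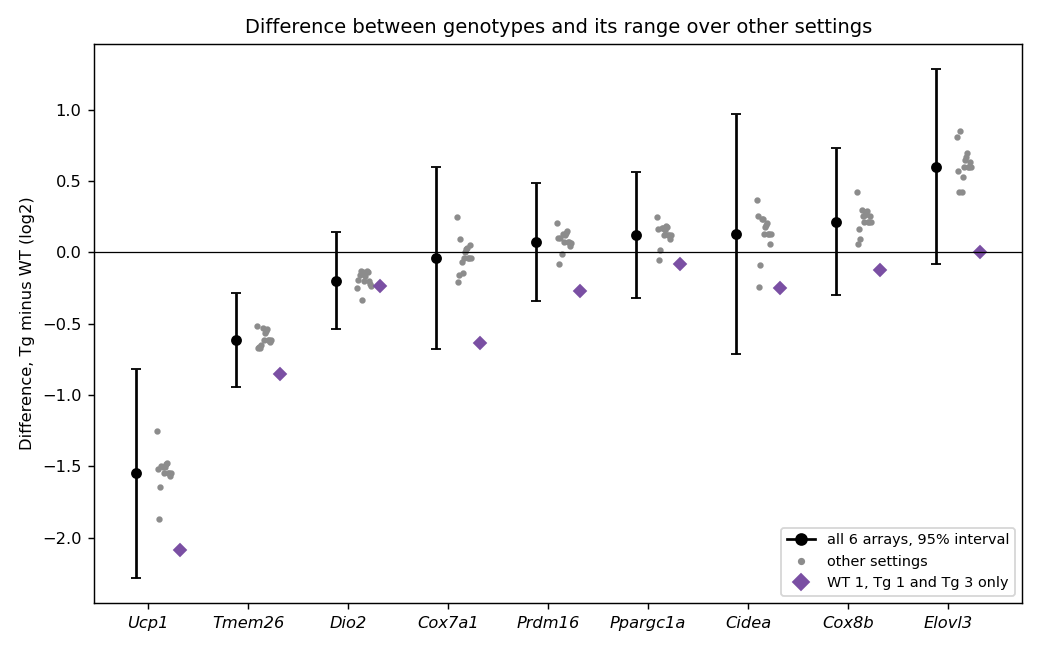
Tg minus WT difference in log2 signal for each gene: black, all 6 arrays with the 95% interval of the limma fit; grey points, the other normalizations, models and fits without 1 array; purple diamonds, WT 1, Tg 1 and Tg 3 alone. The intervals of Ucp1 and Tmem26 lie below 0 and those of the other 7 genes include 0; all points of Ucp1, Tmem26 and Dio2 are below 0 and all points of Elovl3 above it; 8 of the 9 diamonds lie below 0, and that of Elovl3 is at 0.0033.

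Among the WT mice, WT 1 was the highest WT array for 8 of the 9 genes, all but Dio2, where it was the lowest, and over all rows WT 1 was the highest WT array in 34.9%. The order WT 1, WT 2, WT 3 held for Ucp1, Cidea, Elovl3, Ppargc1a and Prdm16. Averaged over the 9 genes and set against the mean of all 6 arrays, WT 1 read 0.42, WT 2 0.03 and WT 3 -0.24, while Tg 1 to Tg 3 read -0.04, -0.03 and -0.13. WT 3 also had the lowest white adipocyte mean (-0.38) and endothelial mean (-0.49) and the highest smooth muscle mean (0.43) of all arrays. The part of this in the order of the WT arrays was not tested.

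**Figure D3:**
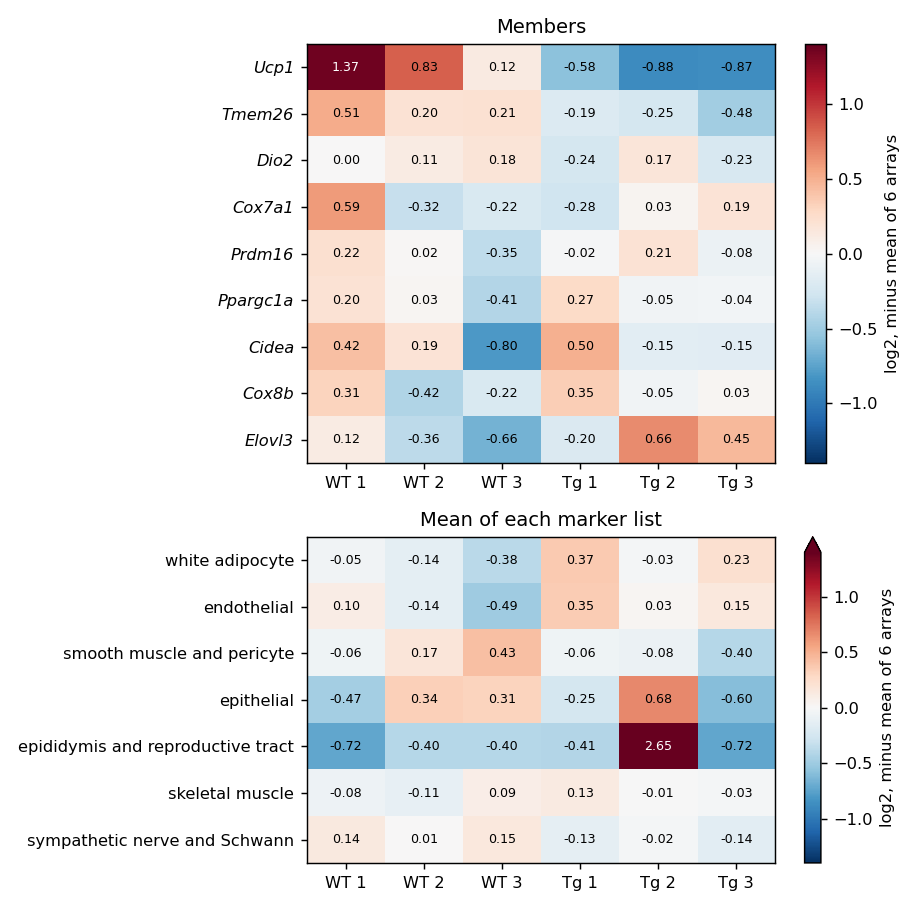
Log2 signal on each array minus the mean of the 6 arrays, for the 9 genes (upper panel) and for the mean of each cell type marker list (lower panel); red is above and blue below the mean, and the colour of the epididymal value of Tg 2, 2.65, is cut at the end of the scale. WT 1 is red or near 0 for every gene, and Ucp1 is blue in all 3 Tg arrays.

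Paralogs were read beside the markers, since white adipocytes use other members of the same families. Of 23 measured paralogs 16 were higher and 7 lower in Tg, 0 passed the threshold and the median difference was 0.12. Groups stood apart in 3 higher paralogs (7.36% of all rows) and in 1 lower paralog (9.35% of all rows). Ucp3, an uncoupling protein gene of muscle and brown fat, differed from Ucp1 in direction: it read 5.05, 4.47 and 4.42 in WT and 5.83, 5.27 and 5.56 in Tg. Its groups did not overlap, and the difference was 0.91 ± 0.22 (SE) with an adjusted p of 0.34 in limma. Cidec, the lipid droplet gene of white adipocytes in Cidea's family, was higher by 0.17 ± 0.10 with groups apart, and Elovl6, an elongase of the lipogenic route, by 0.62 ± 0.27 with groups overlapping. Cox8a, the widely expressed counterpart of Cox8b, differed by 0.14 ± 0.13.

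Further brown and beige markers differed in both directions. Of 27 measured genes, 19 were higher and 8 lower in Tg with a median of 0.19, and 0 passed the threshold. Groups stood apart in 6 higher genes (7.36% of all rows) and in 1 lower gene (9.35% of all rows). Plin5, a droplet protein gene that couples fat stores to mitochondria, read 5.09, 4.84 and 4.75 in WT and 6.27, 5.36 and 5.59 in Tg, a difference of 0.85 ± 0.25 (SE). Slc36a2, an amino acid transporter gene known as a surface marker of brown and beige cells, was higher by 0.50 ± 0.15, and Ebf3, a relative of Ebf2, by 0.52 ± 0.12, both with groups apart. Pdk4, a brake on pyruvate oxidation, was higher by 0.45 ± 0.19 with groups overlapping. The adjusted p of these 4 genes was between 0.33 and 0.50 in limma. Beige markers of the same list with negative differences, named after their values were seen, were Epsti1 (-0.60 ± 0.32), Cited1 (-0.58 ± 0.35), Tnfrsf9 (-0.23 ± 0.15) and Slc29a1 (-0.12 ± 0.10), all with groups overlapping. Other genes of the list went the opposite way, among them Tbx1 (0.42 ± 0.18, groups overlapping) and P2rx5 (0.23 ± 0.12, groups apart).

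Upstream of the markers, the adrenergic route was read from 16 genes, 10 higher and 6 lower in Tg with a median of 0.07 and 0 past the threshold. The adrenergic receptor genes had no row of their own. Adcy5, an adenylyl cyclase gene, read 6.59, 6.50 and 6.52 in WT and 7.71, 7.02 and 7.28 in Tg. This difference of 0.80 ± 0.18 (SE) exceeded the spread of either group. Prkar2b, the protein kinase A regulatory subunit gene typical of fat, was higher by 0.48 ± 0.13 and the anchoring protein gene Akap1 by 0.32 ± 0.12, both with groups apart. The adjusted p of Adcy5, Prkar2b and Akap1 lay between 0.33 and 0.46 in limma. Groups stood apart in 3 higher genes, against 7.36% of all rows, and in 1 lower gene, Arrb2 (-0.20 ± 0.10), against 9.35%.

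Among 24 transcription regulators of the programme 13 were higher and 11 lower, with a median of 0.08 and 0 past the threshold. Groups stood apart in 2 higher genes (7.36% of all rows) and in 3 lower genes (9.35% of all rows). The higher genes were Pparg, the master regulator of adipocytes (0.26 ± 0.12), and the thyroid hormone receptor gene Thrb (0.46 ± 0.23). The lower genes were the homeobox gene Hlx (-0.22 ± 0.10), Cebpb (-0.19 ± 0.11) and Kdm1a (-0.06 ± 0.09). Of 10 genes known to hold the programme back, 8 were higher and 2 lower, with a median of 0.11 and 0 past the threshold. Zfp423, which keeps white adipocytes white, read 5.82, 4.94 and 5.55 in WT and 5.76, 5.74 and 5.97 in Tg. Its groups overlapped through WT 1, and the difference was 0.39 ± 0.23 (SE). Rbl1, a retinoblastoma-family gene, was lower by -0.28 ± 0.10 with groups apart. Rb1, of the same family, was higher by 0.21 ± 0.11, also with groups apart. Groups thus stood apart in 1 higher (7.36% of all rows) and 1 lower (9.35% of all rows) of these 10 genes.

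**Figure D4:**
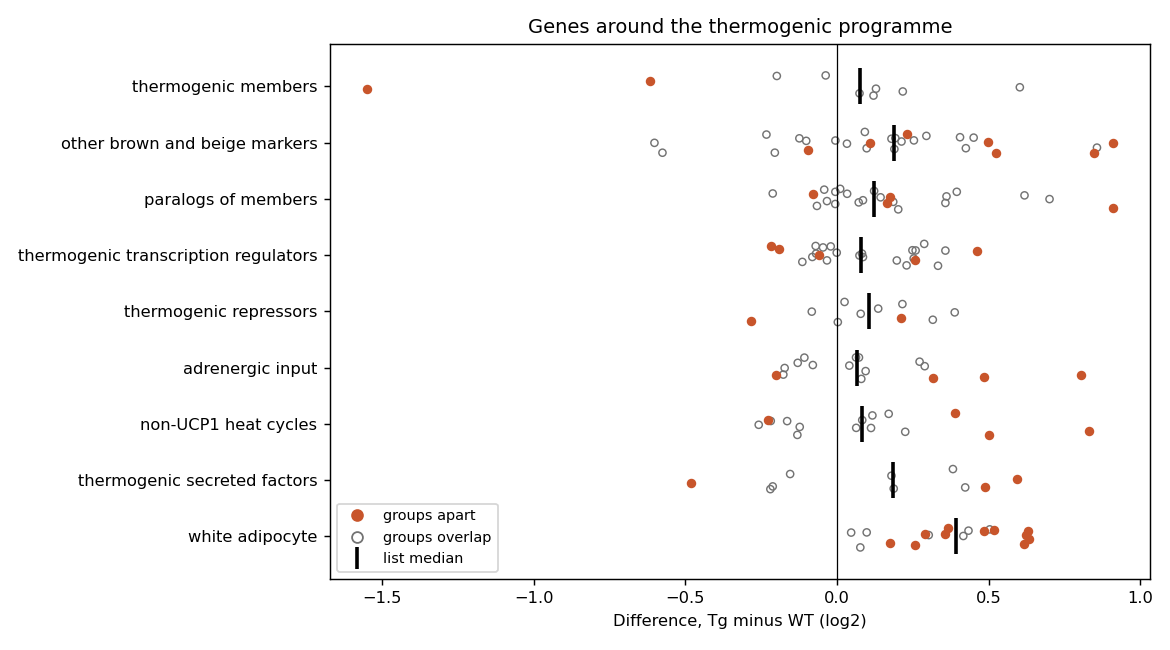
Tg minus WT difference in log2 signal of each measured gene (points; filled where the 3 Tg and 3 WT arrays do not overlap) in the 9 listed markers, 7 further lists around the thermogenic programme and the white adipocyte list; black bars are list medians. Ucp1 at -1.55 is the lowest point shown, while list medians lie between 0.07 and 0.39.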

How the data were processed

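Per the labels, eWAT total RNA of 6 mice was hybridised to Affymetrix arrays after biotin labelling. The deposited values are log2 intensities, 1 per row and array; RMA and limma are named in the submitters' processing notes, and versions, settings and genome build are not given in the sources used here. RMA normalizes between arrays and compresses low signals. Of 41345 rows, 23521 named 1 gene, 1814 several and 16010 none.

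Tg was compared with WT on all rows with lmFit and eBayes of limma 3.58.1 under R 4.3.3 (two-sided, no covariate, no filter), with Benjamini-Hochberg adjustment over all rows and 0.05 as the threshold. Named were the listed genes and, from 14 further lists, mostly those with the smallest p or highest mean. Defb42, Actg2, Arrb2, Cebpb, Kdm1a, Tbx1, P2rx5, Epsti1, Cited1, Tnfrsf9 and Slc29a1 were named outside this rule. The genes most like Ucp1 were picked by Pearson's r. The members, lists and alternatives were chosen with earlier results of these data known. In simulated data for this comparison over 41345 rows, 63% of 100 rows changed 2-fold and 93% of 100 rows changed 4-fold were recovered. The changed rows were picked at random, the noise was normal and independent between rows, and 11 unchanged rows were also called. The real arrays share differences in tissue content, so these rates need not hold for the listed genes. Alternatives left out arrays, added the replicate block, rescaled the arrays in 3 ways, dropped dim rows, changed the variance model, weighted arrays or averaged the rows of a gene. Spread between replicates is that between the 3 arrays of a group.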

Additional observations from a re-analysis of the deposited data

How the results depend on the processing

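Under 15 other settings limma called 0 of the 9 genes and 0 rows in every case, with 2246 to 5089 rows at an unadjusted p under 0.05. Ucp1 ran from -2.09 to -1.25 and Tmem26 from -0.85 to -0.51, and neither changed sign, nor did Dio2 (-0.33 to -0.13) or Elovl3 (0.0033 to 0.86). Without 1 array the number of genes lower in Tg ran from 3 to 7 and the median difference from -0.16 to 0.25. Without WT 2, WT 3 and Tg 2 it was 8, the median difference was -0.25, and the sign turned for Cidea (-0.25), Cox8b (-0.12), Ppargc1a (-0.084) and Prdm16 (-0.27). Cox7a1 turned to 0.0017 with cyclic loess, 0.028 with median centring, 0.031 with quantile normalization and 0.050 with array weights. In fits without 1 array, Cidea ran from -0.24 to 0.37, Cox7a1 from -0.21 to 0.25, Cox8b from 0.06 to 0.43, Ppargc1a from -0.053 to 0.25 and Prdm16 from -0.082 to 0.20. The cause was not tested. The replicate number as a block left Ucp1 at -1.55 and its adjusted p at 0.42 and called 0 rows. Same-numbered WT and Tg arrays deviated from their group means with correlations of -0.04, 0.01 and -0.04 over all rows. No shared deviation was seen, but such a correlation cannot show that the mice were unpaired. Dio2 was below the median signal over all values and had no value in the fit on brighter rows. Signals near the array medians limit what can be seen of Dio2, Cox7a1 and Ucp1 in Tg.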

Other observations

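Heat can also be made without UCP1, by cycles of creatine, calcium or lipid intermediates. Of 15 measured genes of such cycles 9 were higher and 6 lower in Tg, with a median of 0.08 and 0 past the threshold in limma (4 of 15 at an unadjusted p under 0.05, against 10.3% of all rows). Pm20d1, a secreted enzyme that makes N-acyl amino acids which uncouple mitochondria, read 4.004, 3.70 and 3.47 in WT and 4.61, 4.41 and 4.64 in Tg. All 3 Tg arrays were above all WT arrays, opposite to Ucp1, and the difference was 0.83 ± 0.16 (SE) with an adjusted p of 0.33 in limma. Gpd1, of the glycerol phosphate shuttle, was higher by 0.50 ± 0.17 and Gamt, of creatine synthesis, by 0.39 ± 0.14, whereas Atp2a2, the calcium pump of the endoplasmic reticulum, was lower by -0.23 ± 0.09, each with groups apart.

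Of 10 measured genes for factors that brown and beige fat secrete or answer to, 6 were higher and 4 lower, with a median of 0.18 and 0 past the threshold. Fgf21, a hormone gene induced by cold, read 2.90, 2.86 and 2.62 in WT and 3.03, 3.52 and 3.30 in Tg. The groups did not overlap, at levels close to the medians of the arrays, and the difference was 0.49 ± 0.16 (SE). Npr3, the clearance receptor gene for natriuretic peptides, was higher by 0.59 ± 0.17, and Fndc5, the precursor gene of irisin, was lower by -0.48 ± 0.14, both with groups apart.

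Among 11871 genes with a symbol of a characterised gene and a mean above the median signal over all values, the 5 whose values were most like those of Ucp1 across the 6 arrays, by Pearson's r between 0.98 and 0.99, were Slc7a2, Mul1, Letmd1, Abcb4 and Dis3l2, and 137 of these genes had an r above 0.9. Slc7a2, a transporter of cationic amino acids, read 5.34, 5.23 and 5.04 in WT and 4.90, 4.74 and 4.81 in Tg. Letmd1, a mitochondrial protein gene needed by brown fat, followed the order of Ucp1 in WT at 7.93, 7.91 and 7.88 and read 7.81 to 7.82 in Tg, a difference of -0.09 ± 0.09 (SE). These genes were picked for their likeness and share arrays, groups and normalization with Ucp1, so nothing was tested.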
